A study of Mus musculus with 3 samples.

Results

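The genes of the molecular chaperones and of the chaperonins were described in ALSCs, mouse stem cells derived from epiblasts of gastrulae at embryonic day 6.5 (E6.5) and kept in Activin A and LIF. The members were the protein-coding genes whose symbols name them as HSP90, HSP70 (Hspa), HSP110 (Hsph1), HSP60 (Hspd1), HSP10 (Hspe), CCT, J-domain (Dnaja, Dnajb, and Dnajc), or small heat shock (Hspb) genes. There were 81 of them among the 55421 named genes of the table, of which 21926 were protein-coding. RNA was measured as raw counts in 3 libraries of 1 condition, here replicates 1, 2, and 3 of ALSCs. The embryos came from ICR females mated with GOF/GFP males of mixed background, which carry the green fluorescent reporter Oct4ΔPE-GFP (Oct4 is Pou5f1). The study describes the ALSCs as negative for this reporter. The labels call the cells embryonic stem cells and do not say whether the libraries came from separate lines or cultures. The study speaks of biological replicates for its RNA-seq without saying what was replicated, so part of the spread between them may be technical. No other condition was analysed here, and no test between groups was made.

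Chaperones bind unfolded or partly folded proteins and keep them from aggregating. HSP70 proteins grip short hydrophobic stretches in cycles of ATP hydrolysis, which J-domain proteins start and nucleotide exchange factors such as HSP110 reset. HSP90 acts later, on nearly folded clients such as kinases and steroid receptors. The chaperonins, HSP60 with its lid HSP10 in mitochondria and TRiC/CCT in the cytosol, enclose a client inside a barrel, and actin and tubulin are known clients of TRiC/CCT. The small heat shock proteins hold unfolded proteins without ATP. Heat shock factor 1 (HSF1) raises the transcription of many of these genes under stress, whereas ATF6 and related factors raise the chaperones of the endoplasmic reticulum (ER).

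Summed over the named genes, replicate 1 had 18088505 counts, replicate 2 had 18724038, and replicate 3 had 18037342. Levels were given as FPKM, the count scaled by gene length and by the total count of the library, and a level was taken as not detected at 3 counts or fewer, the limit that a count of 0 allows. Such limits cover counting error only. All 9 epiblast markers reached 1 FPKM in every library, among them Pou5f1 at 648 ± 25.3 FPKM (SD, n = 3, as for every mean ± SD below). Of the markers of other cells, 3 of 8 fibroblast, 1 of 6 endoderm, 1 of 6 trophoblast, and 3 of 5 neural genes did so. Their summed levels were 12.6 to 14.2, 1.78 to 2.94, 4.20 to 4.54, and 67.8 to 74.0 FPKM, against 1943 to 2005 FPKM for the epiblast markers. Of the fibroblast genes, Thy1 (6.88 ± 0.400 FPKM), Col1a1 (5.04 ± 1.11), and Fbln2 (1.22 ± 0.0634) passed 1 FPKM, Col1a2 had 32, 64, and 65 counts, and Col3a1, Postn, Dcn, and Lum never exceeded 3 counts. Of the neural genes, Nes (34.3 ± 4.01 FPKM), Tubb3 (28.0 ± 1.31), and Sox1 (8.18 ± 0.393) reached 1 FPKM in every library, whereas Map2 and Pax6 did not. Those neural genes stood above the lowest epiblast markers, Otx2 (5.08 ± 0.472 FPKM) and Fgf5 (3.89 ± 0.0503). The part of other cells in the levels below was not tested.

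Most chaperone genes were expressed, and a few held most of the RNA. Of the 81 members, 62 reached 1 FPKM in all libraries, whereas 45.7% of protein-coding genes and 20.1% of all named genes did. The members held 1.78%, 1.87%, and 1.86% of the summed FPKM of all genes in replicates 1, 2, and 3 (1.84% ± 0.0521) and 2.28% of the counts. By family, HSP90 took 44.0% of the members' summed FPKM and CCT took 22.0%. The HSP70 genes held 10.9%, the Dnajc genes 6.34%, HSP60 5.88%, HSP10 5.57%, the Dnaja genes 2.02%, the small heat shock genes 1.64%, the Dnajb genes 1.35%, and HSP110 0.309%. Families follow the gene symbols, so HSP110 here is Hsph1 alone, and the HSP110-like Hspa4 is counted with HSP70. The median coefficient of variation between libraries was 8.51% over the 62 members and 10.8% over the 11125 genes that passed the same threshold. Among genes with a mean of 1000 counts or more it was 6.93% over 36 members and 9.62% over 4040 genes. These differences were not tested, and in a chi-square test of the counts members varied more often than all genes.

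**Figure D1:**
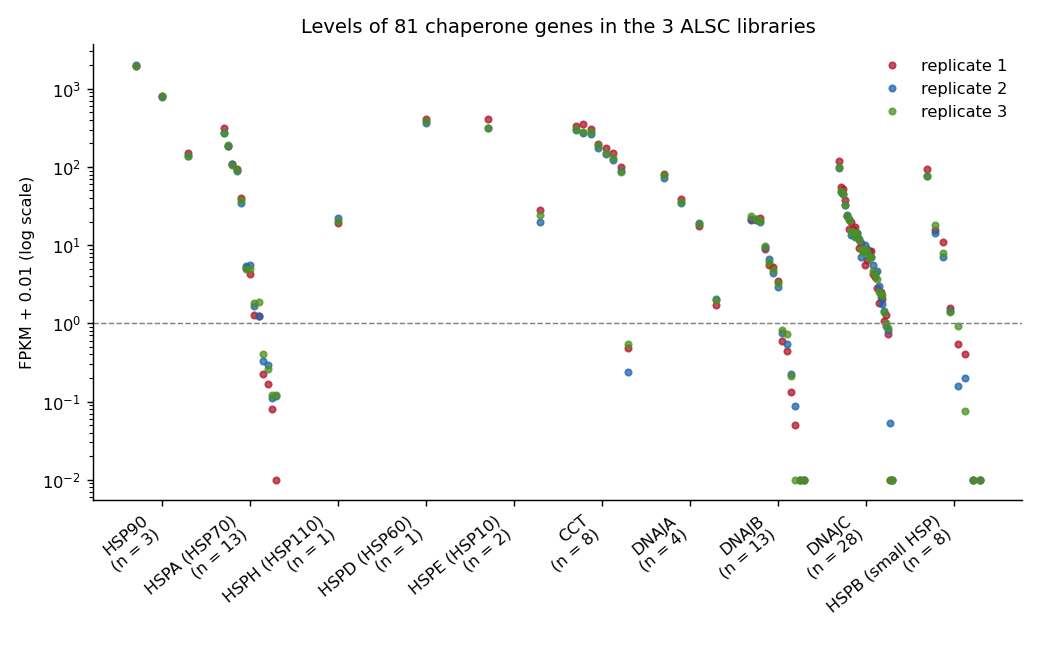
Level of each of the 81 chaperone genes (points, FPKM + 0.01 on a log axis) in replicates 1, 2, and 3 of ALSCs (colours), by family with the number of genes, in falling order within a family; the dashed line marks 1 FPKM. Hsp90ab1 and Hsp90aa1 stand highest, Hspd1, Hspe1, and 7 of the 8 CCT genes lie between 87.5 and 416 FPKM, and the HSP70, Dnajb, Dnajc, and small heat shock families each reach down to genes at or near 0.

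The cytosolic HSP90 pair was at the top. Hsp90ab1, the constitutive cytosolic HSP90 (ENSMUSG00000023944, GRCm38 chr17:45567775-45573271, minus strand), measured 1948, 2031, and 1969 FPKM in replicates 1, 2, and 3, which ranked it 9 among all named genes by mean. Hsp90aa1, the stress-inducible form of the same protein, measured 798, 786, and 813 FPKM and ranked 53. Thus the constitutive form stood above the inducible one in every library, by 2.48 ± 0.0884 times, and the pair alone made up 41.9% of the members' summed FPKM. Hsp90b1, the HSP90 of the ER (also called GRP94), followed at 150, 140, and 140 FPKM. Trap1, the mitochondrial HSP90, has a symbol outside the chosen families and measured 75.04 ± 1.63 FPKM. Between libraries, the coefficient of variation was 2.18% for Hsp90ab1 and 1.67% for Hsp90aa1.

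Close copies limit some of these levels. When the longest coding transcript of Hsp90aa1 was cut into all its overlapping 50-base words, 41.5% of them were found in the transcripts of no other gene. Its processed pseudogene Gm12346, which holds 51.5% of these words, was counted at 1051, 1167, and 1164, against 56777, 57873, and 57641 counts for Hsp90aa1 itself. Hsp90ab1 was 95.5% its own by the same measure. Of members described below, Hspb1 was 48.4% its own, Hspd1 55.2%, Hspe1 55.2%, and Dnajb6 57.2%. How reads that match several genes were counted is not given in the sources used here, so levels of members with close copies are uncertain to that extent.

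Hspa8 was the most abundant HSP70 gene, and the heat-inducible Hspa1a and Hspa1b were near the limit. Hspa8, the constitutive cytosolic HSC70, measured 317, 270, and 269 FPKM. Hspa9, the mitochondrial HSP70 (mortalin), followed at 185, 186, and 189 FPKM with an SD of 2.04 FPKM. It still varied in the chi-square test described below (adjusted p = 1.72e-04). Hspa4, an HSP110-like exchange factor, measured 108, 109, and 106 FPKM. Hspa5 (BiP), the HSP70 of the ER, was at 95.2, 89.2, and 91.1 FPKM. Hspa14, which works at the ribosome together with the J-protein Dnajc2, reached 39.8, 34.7, and 37.7 FPKM. The ranges of Hspa8, Hspa9, Hspa4, Hspa5, and Hspa14 did not overlap, so this order held in each library.

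Lower HSP70 genes fell well apart from these. Hspa2, known for its role in male germ cells, measured 5.16, 5.45, and 5.01 FPKM, and Hspa13, a microsomal HSP70 without the substrate domain, 4.27, 5.58, and 4.88 FPKM. Hspa12a and Hspa12b, distant relatives of the family, stood at 1.57 ± 0.270 and 1.45 ± 0.371 FPKM. Hspa1b, the classic heat-inducible HSP70, had 11, 17, and 20 counts. Its twin Hspa1a had 0, 6, and 6 counts. Hspa8 therefore exceeded the summed FPKM of this pair by 1463, 625, and 529 times in replicates 1, 2, and 3, and by 2629, 1123, and 950.4 times with the length of the longest coding transcript. The testis gene Hspa1l had 7, 13, and 11 counts, and Hspa4l had 15, 22, and 24. Words are shared here too: 58.8% of those of Hspa1a also occur in Hspa1b, and 33.7% and 37.7% of the words of Hspa1a and Hspa1b are their own, so the split between the twins and their sum are uncertain. Hsph1, the only member grouped as HSP110 by its symbol, measured 19.1, 22.0, and 20.6 FPKM. It lay below the HSP110-like Hspa4 by 5.27 ± 0.357 times, or by 3.30 ± 0.223 times with transcript lengths.

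**Figure D2:**
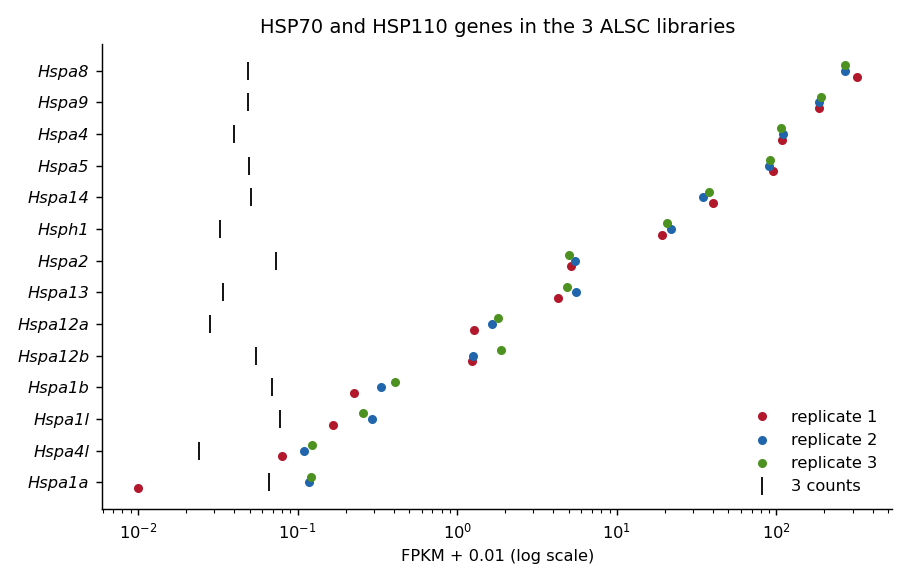
Level (FPKM + 0.01, log axis) of the 13 HSP70 genes and of Hsph1 in replicates 1, 2, and 3 of ALSCs (points); the black mark is the level that 3 counts give, the highest of the 3 libraries. Hspa8 lies near 285 FPKM and the heat-inducible Hspa1b and Hspa1a at or below 0.396 FPKM, with Hspa1a at 0 in replicate 1.

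The level of Hspa8 carries a limit of its own. Hspa8 (GRCm38 chr9:40800984-40810087) had 24701, 21743, and 20835 counts. The row of Gm15459, annotated as a processed pseudogene at chr5:5781615-5783555, had 16822, 18828, and 18971 counts. Only 25.2% of the 50-base words of Hspa8 occurred in no other gene and 70.0% occurred in Gm15459, whereas 1.16% of the words of Gm15459 were its own. Replicate 1 was highest for Hspa8 and lowest for Gm15459. Summed, the pair had 41523, 40571, and 39806 counts, and the log2 ratio of replicate 1 to the mean of the others was 0.14 for the sum and 0.31 for Hspa8 alone. Whether the counts of the pseudogene row are reads of Hspa8 was not tested.

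The members listed as targets of HSF1 ranged widely in level. Of the 12 genes of this list, which holds the constitutive Hspa8 as well as inducible genes, 8 reached 1 FPKM in all libraries, with Hsp90aa1, Hspd1, Hspe1, and Hspa8 highest, and the others were Hspa1a, Hspa1b, Hspa4l, and Dnajb4. Of the heat shock factors, Hsf1 measured 5.54 ± 0.356 and Hsf2 5.48 ± 0.412 FPKM, Hsf4 1.70 ± 0.300 FPKM, and Hsf3 and Hsf5 were at or under 3 counts.

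A heat shock element is an array of alternating 5-base units to which HSF1 binds. RefSeq promoter windows (GRCm38.p6, 250 bases before to 50 after each start) were given for 65 of the 81 members, in 84 windows, and not for the other 16, among them Cct4, Dnajc2, Dnajc5, Dnajc5b, Dnajc11, Dnajc12, Dnajc18, Dnajc22, Dnajc30, Hsp90aa1, Hsp90ab1, Hspa8, Hspa9, Hspa13, and Hspb2. An exact run of the motif was searched on both strands with the letters GAANNTTCNNGAA and its reverse complement TTCNNGAANNTTC. The run was found in 6 windows of 4 members, Hspd1, Hspe1, Hsph1, and Dnajb6, and in 0.603% of all 32851 windows. These are fewer sites than windows, since the overlapping windows of Dnajb6 hold the same stretch, as do those of Hsph1. The elements are shown because those of Hspd1 and Hspe1 are one and the same stretch, read on opposite strands, of genes that point apart and whose spans overlap in the table. Capitals mark the fixed letters of the motif and each line runs 5′ to 3′ on the gene's own strand. Distances are from the RefSeq start of each window, which for each of these 4 members lies inside the span that the table gives. The stretches of Hspd1, Dnajb6, and Hsph1 lie inside the spans of these genes as well. The first matched base lay 144 bases before the start of Hspd1, 89 before that of Hspe1, and 46 before the first start of Dnajb6. In Hsph1 it was base 16 or base 37 after the start, depending on the window.
Hspd1 (chr1:55088053-55088082, minus strand): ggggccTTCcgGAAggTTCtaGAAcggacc
Hspe1 (chr1:55088053-55088082, plus strand): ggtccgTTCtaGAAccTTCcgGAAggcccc
Dnajb6 (chr5:29735844-29735872, plus strand): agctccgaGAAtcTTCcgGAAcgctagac
Hsph1 (chr5:149636280-149636308, minus strand): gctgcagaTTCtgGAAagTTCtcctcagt
These members spanned the range from 391 ± 22.98 FPKM for Hspd1 to 20.6 ± 1.43 FPKM for Hsph1. A match is a description of the letters and not a measured site.

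The mitochondrial machine was led by its chaperonin. Hspd1 (HSP60, chr1:55077835-55088243, minus strand) measured 416, 370, and 388 FPKM in replicates 1, 2, and 3. Hspe1 (HSP10, chr1:55088132-55091307, plus strand), the lid of the same barrel, measured 407, 316, and 315 FPKM. The ratio of Hspd1 to Hspe1 was 1.14 ± 0.109 with the table's gene length and 0.653 ± 0.0624 with the length of the longest coding transcript, so which of them stood higher depended on the length used. All 9 members listed as mitochondrial reached 1 FPKM in all libraries. Below Hspd1, Hspe1, and Hspa9 they dropped steeply to Dnaja3, a J-protein of the matrix, at 17.5, 19.1, and 18.4 FPKM, and Dnajc19, a part of the import motor, at 19.9, 13.6, and 15.3 FPKM. Of 12 further genes of mitochondrial protein quality control, 12 reached 1 FPKM as well.

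In the ER, Hsp90b1 and Hspa5 stood far above the J-proteins. The ratio of Hspa5 to Hsp90b1 was 0.636, 0.637, and 0.652 in replicates 1, 2, and 3, and 0.518 ± 0.00746 with transcript lengths, so Hsp90b1 was higher in every library with both lengths. Dnajc10 (ERdj5), a reductase with a J-domain, measured 23.6, 24.2, and 23.5 FPKM, and Dnajb11 (ERdj3), a co-chaperone of BiP, 22.5, 19.7, and 20.3 FPKM. All 8 members on the ER list reached 1 FPKM in every library. This list leaves out Dnajb12 of the ER membrane and is not a full count of ER members. So did all 14 genes of a further list of ER folding and stress reach 1 FPKM. The highest of the latter were Atf4 (231 ± 24.2 FPKM), a transcription factor of the integrated stress response, and the disulfide isomerases P4hb (224 ± 10.2), Pdia3 (121 ± 12.8), and Pdia6 (113 ± 9.001).

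Promoters of ER chaperones are known for the ER stress response element (ERSE), which ATF6 binds together with NF-Y. The exact letters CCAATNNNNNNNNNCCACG, or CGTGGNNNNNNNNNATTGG on the other strand, occurred in 0.119% of all windows and in those of 3 members, Hspa5, Hsp90b1, and Dnajc3, each an ER protein. The shorter ERSE-II, ATTGGNCCACG or CGTGGNCCAAT, occurred in 0.0365% of windows and in 1 member, Dnajb11, also of the ER. The elements are shown because they fall on members that share a compartment, with capitals for the fixed letters. The choice of genes had not used the compartment, but the choice of motif had. The shared compartment is therefore no independent result.
Hspa5 (chr2:34772020-34772048, plus strand): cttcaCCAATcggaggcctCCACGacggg
Dnajc3 (chr14:118937822-118937850, plus strand): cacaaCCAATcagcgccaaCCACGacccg
Hsp90b1, upstream copy (chr10:86705633-86705661, minus strand): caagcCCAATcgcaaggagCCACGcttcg
Hsp90b1, downstream copy (chr10:86705528-86705556, minus strand): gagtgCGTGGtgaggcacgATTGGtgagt
Dnajb11 (chr16:22857843-22857871, plus strand): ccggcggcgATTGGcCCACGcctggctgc
The first base lay 65 bases before the start of Hspa5, 105 before that of Dnajc3, and 212 and 107 before that of Hsp90b1, whose downstream copy is in the other orientation. In Dnajb11 it was base 8 after the start. These too are RefSeq starts, and those of Hspa5 and Hsp90b1 lie inside the spans that the table gives, as does the element of Hspa5. Dnajc3 (P58IPK), an inhibitor of the stress kinase PERK, measured 9.29, 12.0, and 11.5 FPKM, well below Hspa5. These genes are named for the match, whatever their level.

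**Figure D3:**
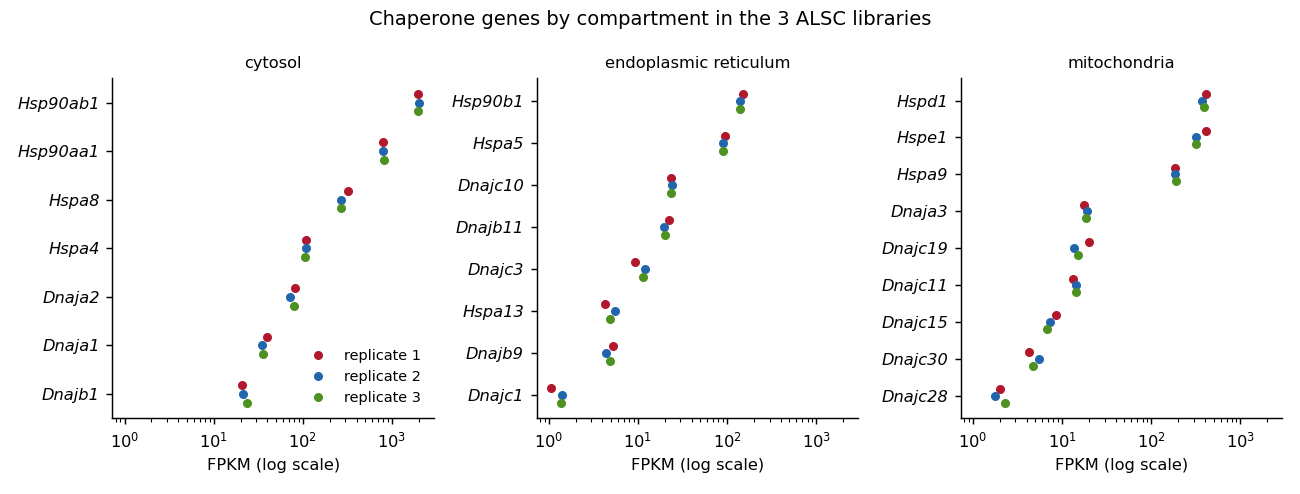
Level (FPKM, log axis) in replicates 1, 2, and 3 of ALSCs (points) of chosen chaperone genes of the cytosol, the ER, and the mitochondria. Lower cytosolic genes, such as Hspa14, Hsph1, and Hspa2, are not shown. Among the genes shown, a few HSP90, HSP70, or chaperonin genes of each compartment stand between 89.2 and 2031 FPKM. The J-protein genes shown, with the ER gene Hspa13, lie at or below 81.9 FPKM.

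TRiC/CCT is a double ring in which each of 8 kinds of subunit takes an equal place, and its genes were all abundant but for 1. Cct2 measured 332, 296, and 307 FPKM in replicates 1, 2, and 3, Cct5 351, 270, and 281, and Cct8 307, 262, and 279. Cct6a was at 196, 177, and 189 FPKM, Cct4 at 175, 148, and 151, Cct7 at 149, 124, and 129, and Cct3 at 99.5, 87.9, and 87.5. Cct6b, the testis form of the position of Cct6a, had 16, 8, and 18 counts, so the RNA for that position was almost all of Cct6a. Tcp1, the CCT1 subunit, whose symbol lies outside the chosen families, measured 148, 130, and 131 FPKM.

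In order of mean, the ranges of Cct2, Cct5, and Cct8 overlapped, as did those of Cct4 with Tcp1 and of Tcp1 with Cct7, whereas Cct8 and the Cct6 position, the Cct6 position and Cct4, and Cct7 and Cct3 did not overlap. Over the 7 positions that the members fill, the highest exceeded the lowest by 3.47 ± 0.0880 times and the coefficient of variation was 42.3%. This spread followed the length used. The table's gene length counts every exon of every transcript and was 3.22 times the longest coding transcript for Cct3 and 2.78 times for Cct7, but 1.31 times for Cct2. With transcript lengths the highest to lowest ratio was 1.69 ± 0.108, now of Cct5 to Cct4, and the coefficient of variation was 20.01%. With Tcp1 as an eighth position both ratios stayed as they were. Cct3 moved from 91.6 ± 6.85 to 295 ± 22.1 FPKM and from the last place to the fifth of 8.

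**Figure D4:**
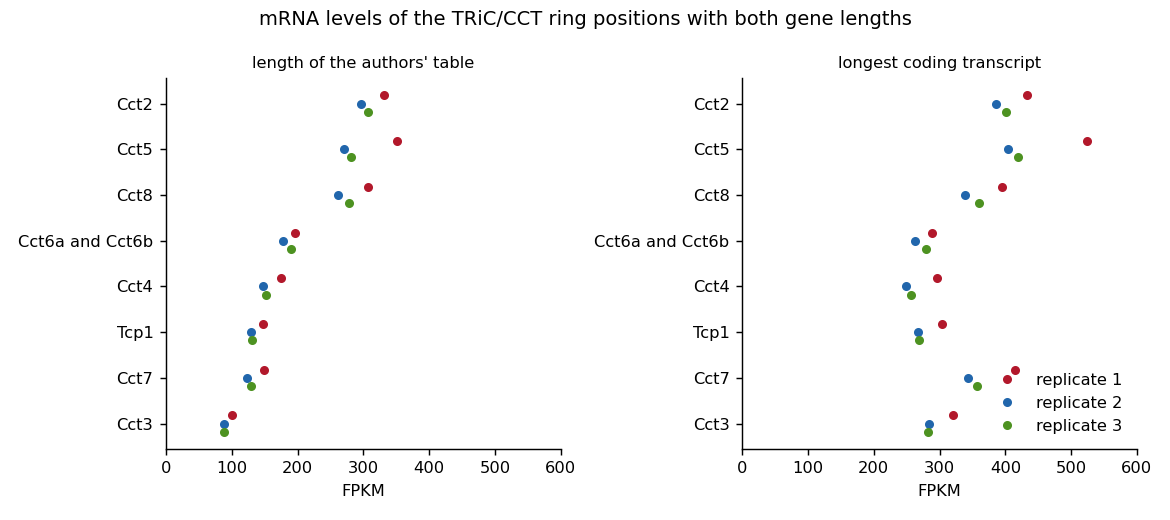
Level (FPKM) of the TRiC/CCT positions, Tcp1 included, in replicates 1, 2, and 3 of ALSCs (points), with the table's gene length (left) and transcript length (right), in the order of the left panel. The levels span 87.5 to 351 FPKM on the left and 250 to 524 FPKM on the right, and replicate 1 is highest at each position in both panels.

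The J-domain genes were many and mostly of middle level. Together, the 45 of them amounted to 0.893 ± 0.00845 of the summed FPKM of the 13 HSP70 genes. In the Dnaja family, the classical HSP40 proteins, Dnaja2 measured 81.9, 71.9, and 78.8 FPKM and Dnaja1, the other main cytosolic form, 39.1, 34.5, and 35.7. Dnaja4 was lowest at 1.91 ± 0.166 FPKM, and 51.9% of the words of its transcript also occur in the overlapping gene Wdr61, so its level is uncertain. In the Dnajb family, Dnajb1, the inducible HSP40, measured 21.03, 21.4, and 23.7 FPKM, and Dnajb6, a suppressor of aggregation, 21.2, 21.8, and 21.7. Dnajb12, in the ER membrane, was at 9.36 ± 0.420 and Dnajb5 at 6.15 ± 0.558 FPKM. With the table's gene length, the highest value of any Dnajb gene was 23.7 FPKM, and 7 of the 13 reached 1 FPKM in all libraries. With the length of the longest coding transcript, Dnajb6 measured 44.1, 45.4, and 45.1 FPKM and Dnajb1 22.5, 22.8, and 25.3.

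Among the 28 Dnajc genes, 24 reached 1 FPKM in all libraries. Dnajc8, a factor of the spliceosome, measured 118, 96.3, and 98.8 FPKM. Dnajc7, a co-chaperone with TPR repeats that binds HSP70 and HSP90, was at 55.5, 47.8, and 49.7 FPKM. Dnajc9, a histone chaperone, was at 52.5, 44.6, and 45.6, and Dnajc2, at the ribosome and on chromatin, at 37.8, 32.4, and 32.9 FPKM. Dnajc5, the cysteine string protein of secretory vesicles, stood at 15.9, 21.8, and 20.8 FPKM, with replicate 1 the lowest. Dnajc21, a factor of ribosome biogenesis, measured 16.1, 14.7, and 14.8 FPKM. Hence Dnajc8 was higher than every Dnaja and Dnajb gene in each library.

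The small heat shock genes were led by Hspb1 (HSP25 or HSP27) at 94.4, 75.8, and 76.0 FPKM. Hspb8, a partner of Bag3 in selective autophagy, measured 15.5, 14.3, and 17.9 FPKM. Hspb11 measured 11.0, 7.04, and 7.92 FPKM. With the length of the longest coding transcript, Hspb11 was at 29.5 ± 7.08 FPKM and Hspb8 at 17.0 ± 1.98, so their order depended on the length used. Despite its symbol, Hspb11 is known as IFT25, a part of intraflagellar transport. Of the 5 small heat shock genes known from muscle, 2 reached 1 FPKM in all libraries, namely Hspb8 and Hspb6. Of the 10 members known from germ cells, Hspa2 alone did so and 5 were at the limit. In all, 7 members had 3 counts or fewer in each of the libraries, Dnajb3, Dnajb7, Dnajb8, Dnajc5b, Dnajc5g, Hspb3, and Hspb7, and 71 were above 3 counts in all of them.

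To ask which members varied between libraries, the counts of each gene were set against library sizes scaled by TMM (a correction for library composition) in a chi-square test, adjusted over 16944 genes. The test covers counting error only and says that libraries differ, not that they differ more than cultures usually do. Of the 74 members tested, 47 varied at an adjusted p below 0.05, or 63.5%, whereas 47.2% of all genes tested did. The test gains power with the count, and among genes with a mean of 1000 counts or more it called 32 of 36 members and 82.2% of all genes. Replicate 1 stood above both others in 32 of the 47 (43.2% of those tested, against 22.2% of all genes) and below both in 11 (14.9% against 22.1%). Among genes with a mean of 1000 counts or more, 27 of 36 members were called with it above, against 43.8% of all genes. With it below, 4 of the 36 were called, against 35.9%. Without replicate 1, 18 of 73 members varied between replicates 2 and 3, against 8.11% of all genes. At a mean of 1000 counts or more, 14 of 36 members did, against 18.4%. Without replicate 2, 40 of 72 members varied, against 42.9% of all genes, and without replicate 3, 46 of 71, against 46.7%.

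Replicate 1 had fewer counts of long genes throughout the table, and the members followed. Over the 62 members with a mean of 100 counts or more, the log2 ratio of replicate 1 to the mean of the others correlated with log2 gene length at Pearson's r = −0.61 and Spearman's rho = −0.57, and over the 10573 genes with such counts at −0.59 and −0.64. These are correlations across genes of the same 3 libraries and genes are not independent replicates. The median log2 ratio was 0.16 over these members and 0.00 over all genes, and 0.08 over the 74 members with 10 counts or more in total. For the 62 it was 0.08 once the trend of all genes on gene length was taken off, and 0.05 when the trend on GC content was taken off as well.

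Among the 5 members with the largest chi-square per count at 5 FPKM or more were Hspb11, Dnajc13, Dnajc17, and Dnajc19. Dnajc13, an endosomal J-protein with a gene length of 11938 bases, had 1190, 2220, and 1923 counts, a log2 ratio of −0.70 (adjusted p = 1.54e-50, chi-square). Hspb11 lay at the other end with 412, 273, and 296 counts, a log2 ratio of 0.59 (adjusted p = 2.49e-10). Dnajc19 had 1446, 1024, and 1110 counts and a log2 ratio of 0.52, and Dnajc17, linked to splicing, had 251, 172, and 210 counts and 0.45. Replicates 2 and 3 lay on the same side of replicate 1 for each of these 4.

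For the CCT genes, replicate 1 was the highest library. It was above both others in 7 of the 8, each called, with log2 ratios from 0.16 for Cct6a to 0.42 for Cct5 and a median of 0.25. Cct6b, at 16, 8, and 18 counts, was not called (adjusted p = 0.159, chi-square). Among all genes with a mean of 1000 counts or more, 43.8% were called with replicate 1 on top. The median of the CCT genes with 100 counts or more was 0.25 after the trend on the table's gene length was taken off, but 0.14 when the trend was taken on the length of the coding transcript, a choice made after seeing the data. For the 3 small heat shock genes with such counts the median went from 0.38 to 0.00 with the first correction. Their corrected values ran from −0.26 for Hspb8 to 0.32 for Hspb11. Between replicates 2 and 3 alone, 6 of the 8 CCT genes varied, all 6 with a higher FPKM in replicate 3, against 8.11% of all genes and 18.4% of those with a mean of 1000 counts or more.

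**Figure D5:**
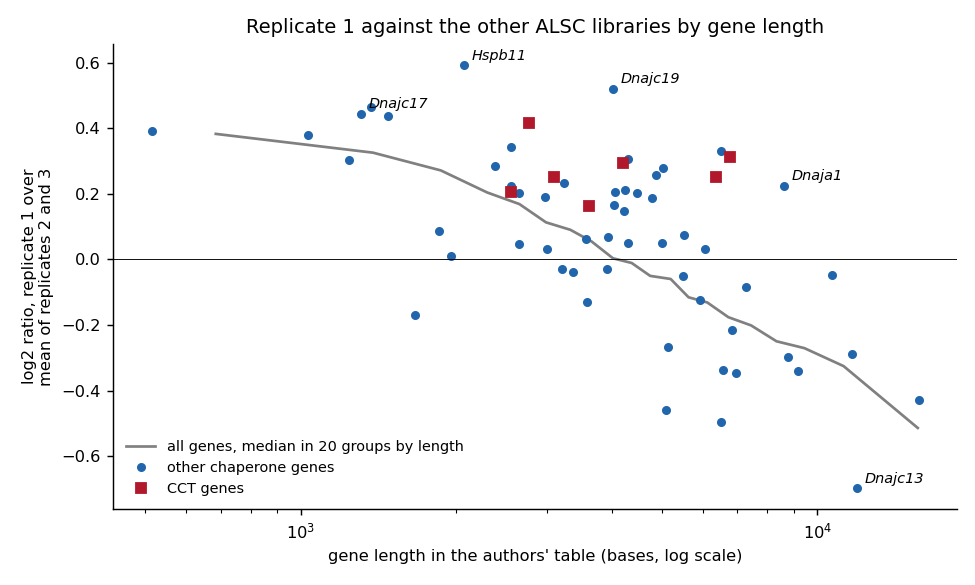
Log2 ratio of replicate 1 to the mean of replicates 2 and 3 (TMM-scaled CPM with 1 added) against gene length (bases, log axis) for the 62 chaperone genes with a mean of 100 counts or more; red squares are CCT genes and the grey line is the median of all genes in 20 groups by length. The ratio falls with length for the members as for all genes, from 0.59 for Hspb11 to −0.70 for Dnajc13, and the 7 CCT squares lie between 0.16 and 0.42.

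Partners of the chaperones were expressed as broadly. The list of 13 HSP90 co-chaperones also holds Trap1, itself an HSP90. All 13 genes reached 1 FPKM in every library. The highest were Fkbp4 (409 ± 14.8 FPKM), an immunophilin of steroid receptors, Stip1 (305 ± 13.0), which bridges HSP70 and HSP90, and Ptges3 (200 ± 28.0), the p23 protein. Of the 13, 11 varied between libraries, 9 with replicate 1 above both others and 2 with it below. Trap1 was not called. Over all genes tested, 47.2% varied, and 82.2% of those with a mean of 1000 counts or more, with replicate 1 above both others in 22.2% and 43.8%. All 14 HSP70 co-chaperones reached 1 FPKM, with Bag1 (88.3 ± 10.6 FPKM), Bag6 (42.7 ± 5.92), and Hspbp1 (38.9 ± 4.05) next to Stip1, and 8 varied, 6 above and 2 below. Of the 10 chaperonin partners, Tcp1 included, 9 reached 1 FPKM and the other, Pdcl2, had 0 counts. Tcp1 was the highest at 136 ± 10.2 FPKM. The prefoldin subunits, which hand actin and tubulin to TRiC/CCT, followed with Pfdn1 (108 ± 16.2 FPKM), Pfdn6 (99.97 ± 10.04), and Vbp1 (73.4 ± 8.76). All 9 varied, 8 with replicate 1 above both others, to be set beside the same shares over all genes and beside the excess of replicate 1 in short genes.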

How the data were processed

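Poly(A) RNA of 3 ALSC libraries was sequenced. The deposited table holds raw counts per gene made by the authors, without normalization, from paired-end reads mapped to GRCm38; the submitters' processing notes name HISAT2 2.0.5. The counting program, its strand setting, and its handling of reads that match several genes are not given in the sources used here. Another 3 columns of counts match no sample of this series and were not used. The 317 rows without a gene name (0.165%, 0.182%, and 0.182% of the counts) were left out.

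FPKM was computed from the counts, the total on named genes (18037342 to 18724038), and the table's gene length, which for 80 of the 81 members equals the union of exons in GENCODE M21. The alternative length was that of the longest coding transcript (for Cct6a, the longest transcript). Counts were tested with a chi-square test against edgeR TMM library sizes (at least 10 counts in total, Benjamini-Hochberg adjustment, threshold 0.05), which was tested on simulated data. Log2 ratios used a pseudocount of 1 CPM. Trends were medians in 20 groups of genes by length. Tools were edgeR 4.0.16 and DESeq2 1.42.0 in R 4.3.3, and SciPy 1.17.1, pandas 2.3.3, NumPy 2.4.6, and matplotlib 3.10.9 in Python 3.11.15. Alternatives were TPM, transcript length, other library sizes, thresholds, filters, and pseudocounts, and leaving out each library.

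Named were every HSP90, HSP70, HSP110, HSP60, HSP10, and CCT member with Tcp1, the 3 highest Hspb, 5 highest Dnaja and Dnajb, and 8 highest Dnajc members, the 5 with the largest chi-square per count at 5 FPKM or more, those at or under 3 counts, and at most 4 highest genes of each list. Other members are named for a motif match or shared letters, or to account for a list, after their values were seen. Members and lists were chosen with earlier results of these data known. The values of 1 member that this rule names are not reported here.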

Additional observations from a re-analysis of the deposited data

How the results depend on the processing

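No paired analysis was possible because every sample used belongs to 1 condition. The number of members at 1 FPKM or more was 62 when any library was left out, 66 with TPM, 64 with transcript lengths, 65 at 0.5 FPKM, and 55 at 2 FPKM. The number of members varying between libraries was 43 to 47 under the other library sizes, filters, and adjusted p threshold, and 18 to 46 when a library was left out, the lowest without replicate 1, where 2 libraries remain to be compared. The members' share was 2.28% of the counts in place of 1.84% of the summed FPKM, and 1.82% to 1.87% without a library. The ratio of the highest to the lowest CCT subunit was 1.69 with transcript lengths, also with Tcp1, and 3.44 to 3.52 without a library. The median log2 ratio of replicate 1 over the members was 0.0451 with length and GC trends removed and 0.0451 with the trend on transcript length removed, the latter chosen after seeing the data, as were Tcp1 as an eighth position and the sum with Gm15459. It was 0.09 with total counts, where the median of all genes was −0.06. The ratio of Hsp90ab1 to Hsp90aa1 was 2.46 with transcript lengths and 2.43 to 2.51 without a library. Of the 50 named members' levels, 40 moved by more than 1 SD with transcript lengths and all 50 with TPM. TPM rescales every gene of a library alike. None moved that far with the other library sizes. Without any 1 library none did either, but this outcome was fixed by the number of libraries. The mean of any 2 values always lies within 1 SD of the mean of all 3. Leaving out a library was therefore no test of these levels. Counts near the limit of 3 leave the order of the lowest members open to counting error.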
